A study of Mus musculus with 6 samples.

Results

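Expression of 10 genes, *Nnat*, *Mest*, *Peg3*, *Igf2*, *H19*, *Dlk1*, *Plagl1*, *Grb10*, *Cdkn1c* and *Sfrp5*, was examined in inguinal white adipose tissue (IngWAT), the subcutaneous fat of the groin, out of 46517 genes counted by RNA-seq. The first 9 are imprinted genes of growth control, and *Sfrp5*, which is not known to be imprinted, was listed with them because it varies with *Mest* when fat expands. The genes were found by matching their Ensembl identifiers to these symbols, and the list was drawn up knowing that *Nnat* and *Mest* were among the genes with the largest falls. The genes were thus selected on the counts of these same 6 samples, and the difference between the genotypes is given for these 10 genes as a description, without a test.

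Both genotypes were C57Bl6 mice on a chow diet, aged 5 to 9 months. Floxed mice carried *Hdac3* alleles flanked by loxP sites, and H3atKO mice also expressed the Cre recombinase from the promoter of *Adipoq*, the adiponectin gene, which is active in adipocytes and not in the other cells of the fat pad. Each genotype had 3 samples, and each sample was 500 ng of pooled RNA from 2 or 3 mice, so that the spread between samples is between pools and not between single animals. *Hdac3* itself was at 68.9, 80.3 and 65.8 cpm (the usual scaling of counts to library size, here sizes after TMM normalization) in floxed replicates 1 to 3 and at 27.4, 21.1 and 12.9 cpm in H3atKO replicates 1 to 3, a log2 fold change of -1.83 (SE, the standard error, 0.317, limma adjusted p = 0.0213). Adipocyte markers were present in every pool, at a summed 13500 to 29180 cpm in floxed and 15400 to 26600 cpm in H3atKO samples, most of it *Fabp4*, a fatty acid binding protein. The 7 markers had a median log2 fold change of -1.49, although none of the 7 was called. *Lipe* (hormone-sensitive lipase) and *Retn* (resistin) went from means of 751 and 456 cpm to 70.1 and 169 cpm without overlap. Of all genes 28.6% were lower without overlap. The other markers overlapped, with means lower in H3atKO except for *Fabp4*, at 15910 cpm in floxed and 16330 cpm in H3atKO. *Adipoq* was at 2347 and 2078 cpm. By quantitative PCR the study reported higher *Lipe*, *Fabp4* and *Adipoq* in H3atKO IngWAT.

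In an imprinted gene, the copy from a single parent is expressed and the other is silent, and the choice is held by DNA methylation laid down in the germ line at an imprinting control region. Paternally expressed genes mostly favour fetal growth and maternally expressed genes mostly restrain it, and many of both kinds are highest before and shortly after birth and decline in adult tissue. In adult fat, *Mest* is known to be high when adipocytes enlarge and to differ widely between genetically identical mice. The counts do not tell the parental copies apart, so that every value below is the sum of both.

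The windows of 300 bases around the start sites of genes, 250 before and 50 after, were taken from RefSeq on GRCm38.p6, which held 14 windows for 8 of the 10 genes. Those of *Nnat*, *Mest*, *Peg3* and *Sfrp5* are shown because *Nnat*, *Mest* and *Sfrp5*, the last of them without an imprint, had the largest differences between genotypes, and *Peg3* was the most abundant in H3atKO. Capitals mark CpG dinucleotides, the bases at which an imprint is methylated, and each sequence is written 5′ to 3′ along the strand of its gene.
Nnat, chr2:157559828-157560127, plus strand: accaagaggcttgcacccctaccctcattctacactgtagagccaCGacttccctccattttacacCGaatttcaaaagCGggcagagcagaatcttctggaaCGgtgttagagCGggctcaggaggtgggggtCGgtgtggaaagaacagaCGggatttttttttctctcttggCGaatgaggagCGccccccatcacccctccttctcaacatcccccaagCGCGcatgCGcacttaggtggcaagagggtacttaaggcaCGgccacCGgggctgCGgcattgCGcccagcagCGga
Mest, chr6:30737800-30738099, plus strand: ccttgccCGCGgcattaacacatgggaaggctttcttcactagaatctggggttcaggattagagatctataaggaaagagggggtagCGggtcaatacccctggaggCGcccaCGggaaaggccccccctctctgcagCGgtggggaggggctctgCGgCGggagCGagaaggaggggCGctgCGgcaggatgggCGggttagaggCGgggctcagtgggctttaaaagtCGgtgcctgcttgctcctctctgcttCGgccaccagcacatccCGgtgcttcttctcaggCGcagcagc
Peg3, chr7:6730370-6730669, minus strand: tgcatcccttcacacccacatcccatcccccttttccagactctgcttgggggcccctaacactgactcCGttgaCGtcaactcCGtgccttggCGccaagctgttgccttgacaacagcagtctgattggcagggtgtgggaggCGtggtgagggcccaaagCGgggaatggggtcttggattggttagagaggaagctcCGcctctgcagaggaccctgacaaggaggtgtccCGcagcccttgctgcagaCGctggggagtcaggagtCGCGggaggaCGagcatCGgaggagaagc
Sfrp5, chr19:42202203-42202502, minus strand: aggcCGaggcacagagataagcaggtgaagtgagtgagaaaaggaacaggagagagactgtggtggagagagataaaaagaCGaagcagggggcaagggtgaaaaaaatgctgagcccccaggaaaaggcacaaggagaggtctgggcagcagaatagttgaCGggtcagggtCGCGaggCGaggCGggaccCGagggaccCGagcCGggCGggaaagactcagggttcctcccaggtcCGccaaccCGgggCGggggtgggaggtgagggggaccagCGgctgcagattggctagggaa
The windows of *Nnat* and *Mest* each held 17 CpG and those of *Peg3* and *Sfrp5* held 13 and 15, against a median of 7 over 32851 promoter windows of the mouse, and 31.4% of all windows held at least 17. *Mest* had another start further upstream with 8 CpG, and the 2 windows of *Grb10* held 45 and 9. The letters TGCCGC, the core bound by ZFP57 when its CpG is methylated, were searched on both strands. They were found once in the window of *Nnat*, 2 times in that of *Mest* printed here and in neither of the others printed, and 6 of the 14 windows held them, or 5 when the windows of *Mest* that overlap are counted once, against 11.6% of all windows. TGCCGC itself holds a CpG, and the windows of these genes that held it had 14 to 45 CpG, above the median of 7. The shares are thus not compared at a like CpG content, and no enrichment is read from them. Methylation was not measured.

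The paternally expressed *Nnat* (ENSMUSG00000067786; GRCm38 chromosome 2, 157560078 to 157562522), which encodes neuronatin, a small proteolipid of the endoplasmic reticulum, had the largest difference of the 10 genes. Expression was 425, 829.5 and 89.1 cpm in floxed replicates 1 to 3 and 0.741, 3.52 and 1.39 cpm in H3atKO replicates 1 to 3. All H3atKO samples were below all floxed samples, and the lowest floxed sample was 25.3-fold above the highest H3atKO sample. In counts, *Nnat* went from between 3666 and 34495 to between 18 and 69. The log2 fold change from limma voom, the linear model on log2 cpm that was fitted to all genes, was -7.69 (SE 1.3, n = 3 per genotype). Between the floxed samples the highest value was 9.31-fold above the lowest, where the median over all genes was 1.88-fold.

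*Mest* (ENSMUSG00000051855; chromosome 6, 30723547 to 30748465), also paternally expressed and coding for a protein of the hydrolase fold, had the same order of floxed samples. It was at 430.5, 481.5 and 46.2 cpm in floxed and at 3.87, 6.68 and 7.52 cpm in H3atKO replicates. The groups did not overlap, and the mean was 53.0-fold higher in floxed, for which limma gave -5.21 on the log2 scale (SE 1.17). The end of *Mest* overlaps the antisense gene *Copg2* over 912 bases, 23.1% of the exonic bases of *Mest*. Because the strand setting of the counting is not given in the sources used here, reads from that overlap may have been assigned to neither gene.

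*Peg3* and *Plagl1* are paternally expressed and encode zinc finger transcription factors. *Peg3* (ENSMUSG00000002265; chromosome 7, 6703892 to 6730431) was at 1111, 1630 and 965 cpm in floxed and at 397, 446 and 268 cpm in H3atKO replicates, a difference of -1.74 on the log2 scale (SE 0.311). Its groups were apart by 2.16-fold at the nearest, and it varied little within a genotype, with the highest sample at most 1.69-fold above the lowest. *Plagl1* (ENSMUSG00000019817; chromosome 10, 13060504 to 13131694) was at 64.2, 104 and 66.0 cpm in floxed and at 9.68, 53.6 and 61.3 cpm in H3atKO replicates. The groups of *Plagl1* were apart by only 1.05-fold, since H3atKO replicate 1 alone was far below the floxed samples, and its log2 fold change of -1.35 (SE 0.655) was -0.43 without that replicate.

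*Igf2* encodes a growth factor of fetal life, and *H19*, a noncoding RNA 72.6 kb away that shares its imprinting control region, is expressed from the other parental copy. *Igf2* (ENSMUSG00000048583; chromosome 7, 142650766 to 142666816) was at 16.5, 18.4 and 11.4 cpm in floxed and at 5.23, 9.69 and 4.87 cpm in H3atKO replicates. The groups were 1.17-fold apart, and the log2 fold change was -1.27 (SE 0.396) but turned to 0.22 (SE 0.382) after the correction for GC content described below. *H19* (ENSMUSG00000000031; chromosome 7, 142575529 to 142578143) was at 3.60, 3.20 and 26.5 cpm in floxed and at 0.659, 8.01 and 0.379 cpm in H3atKO replicates. These groups overlapped, and the spread within each genotype, 8.28-fold in floxed and 21.1-fold in H3atKO, was larger than the 3.68-fold ratio of the means.

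*Dlk1*, which encodes the preadipocyte factor Pref-1, an inhibitor of adipocyte differentiation, was barely detected. Floxed replicates had 20, 15 and 9 counts and H3atKO replicates 1, 4 and 0, and no sample reached the 1 cpm required for the fit. A count of 0 allowed up to 3 counts, or between 0.0852 and 0.126 cpm of the unscaled libraries. *Dlk1* (ENSMUSG00000040856) is on chromosome 12, 109452823 to 109463336.

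The other maternally expressed members were unlike each other. *Grb10* (ENSMUSG00000020176; chromosome 11, 11930508 to 12038683), an adaptor that restrains signalling from the insulin and IGF1 receptors and is maternally expressed outside the brain, was at 159, 127 and 144 cpm in floxed and at 56.4, 71.2 and 51.0 cpm in H3atKO replicates. Its groups were 1.79-fold apart, for which limma gave -1.27 on the log2 scale (SE 0.238), and the floxed samples lay within 1.25-fold of each other. *Cdkn1c* (ENSMUSG00000037664; chromosome 7, 143458339 to 143461050), the cyclin-dependent kinase inhibitor p57Kip2, was at 22.4, 21.4 and 21.4 cpm in floxed and at 21.1, 32.4 and 35.0 cpm in H3atKO replicates. These groups overlapped, and the sign of its log2 fold change depended on the scaling, with 0.38 (SE 0.277) on TMM-scaled libraries, -0.44 on library sizes alone and 2.54 (SE 0.628) after GC correction.

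*Sfrp5* (ENSMUSG00000018822; chromosome 19, 42197971 to 42202252), a secreted antagonist of Wnt ligands made by adipocytes, was at 138, 69.0 and 3.09 cpm in floxed and at 0.535, 1.17 and 0.443 cpm in H3atKO replicates. The groups did not overlap, with 2.63-fold between floxed replicate 3 and H3atKO replicate 2. Among the floxed samples it spanned 44.7-fold, the widest range of the 10 genes, and its log2 fold change of -5.51 had a standard error of 2.63.

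**Figure D1:**
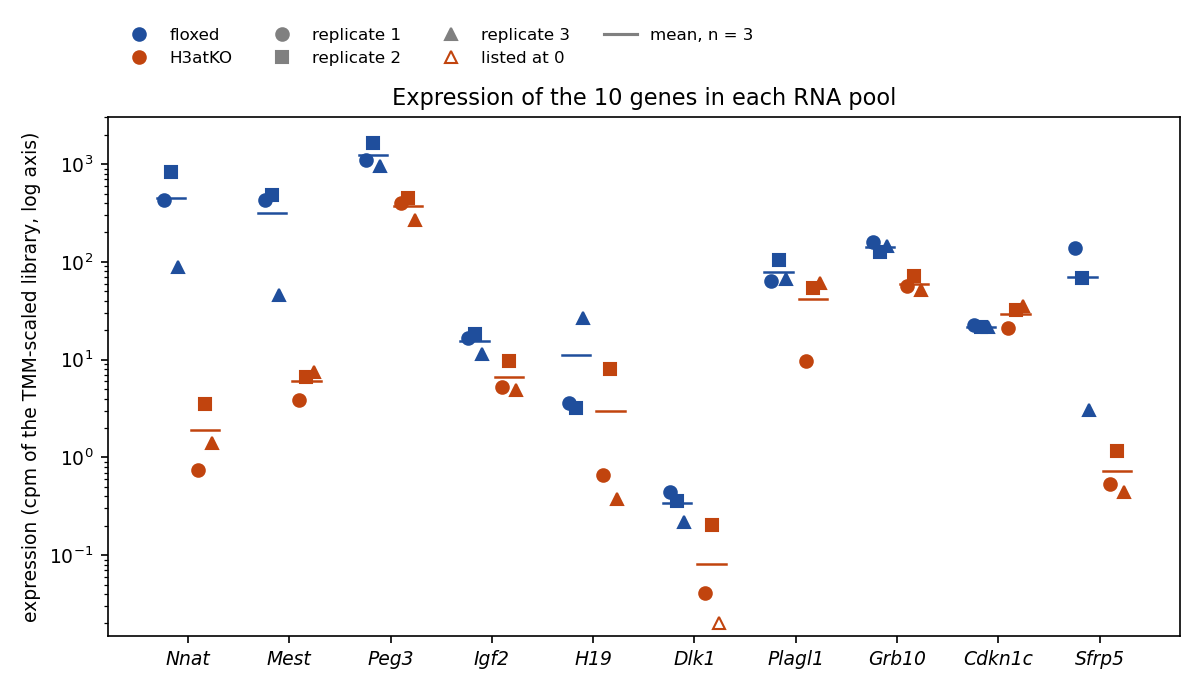
Expression of the 10 genes in each RNA pool, in cpm of the TMM-scaled library on a log axis, with 3 floxed (blue) and 3 H3atKO (orange) pools; symbols mark the replicate number, lines the mean, and the open triangle of *Dlk1* a sample listed at 0, drawn at the foot of the axis. *Nnat*, *Mest* and *Sfrp5* have the widest gaps between the means and a low floxed replicate 3, while the groups of *H19* and *Cdkn1c* overlap.

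Of the 9 genes that could be fitted, 7 were lower in H3atKO with no overlap between the groups, namely *Nnat*, *Mest*, *Peg3*, *Igf2*, *Plagl1*, *Grb10* and *Sfrp5*. Over all 14967 genes in the fit, 28.6% were lower without overlap and 23.1% higher without overlap. At an adjusted p under 0.05 from limma over all genes, 4 of the 9, *Nnat*, *Mest*, *Peg3* and *Grb10*, were called, all of them lower, against 16.5% of genes called in either direction and 7.07% called lower. Nothing is read from these counts, because the genes were listed with this comparison known. The labels do not say what the replicate number marks, and a pairing by it was assumed from these same data. With the replicate number as a block, 6 of the 9 were called, with *Igf2* and *Sfrp5* added. Of all genes 53.5% were called in either direction there and 28.7% were called lower. Without floxed replicate 3 the number was 6, where 44.4% of all genes were called, and without H3atKO replicate 2 it was 3, where 3.57% were. Without any single one of the other 4 samples it was 0, where 0.00673% to 1.66% of all genes were called.

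The genotypes also differed in how expression followed the GC content of transcripts, and each of the floxed samples lay on the other side of each of the H3atKO samples in this respect. Across 14922 genes, which are not independent replicates, the departure of a sample from the mean of each gene followed GC content with a Spearman correlation of 0.800, 0.623 and 0.0969 in floxed and -0.433, -0.504 and -0.711 in H3atKO replicates. A trend with GC content and a change with genotype cannot be told apart here. The transcripts of the 10 genes had between 46.4% and 60.3% GC, with *Sfrp5*, *Cdkn1c* and *Nnat* the highest, where the median of all genes was 49.2%. After the GC trend of each sample was removed, the log2 fold change was -5.68 (SE 1.02) for *Nnat*, -5.42 (SE 1.26) for *Mest*, -2.02 (SE 0.32) for *Peg3*, -1.31 (SE 0.199) for *Grb10* and -1.69 (SE 0.648) for *Plagl1*. *Sfrp5* was at -3.23 (SE 1.78) and *H19* at -0.86 (SE 1.62). The same 4 genes were called after the correction, against 8.61% of all genes called, 3.06% lower and 5.55% higher. With the block and the correction together *Sfrp5* was called lower as well, *Igf2* was not called at 0.25 (SE 0.214), and *Cdkn1c* was called higher at 2.60 (SE 0.162), against 22.8% of all genes called, 9.71% lower and 13.1% higher.

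**Figure D2:**
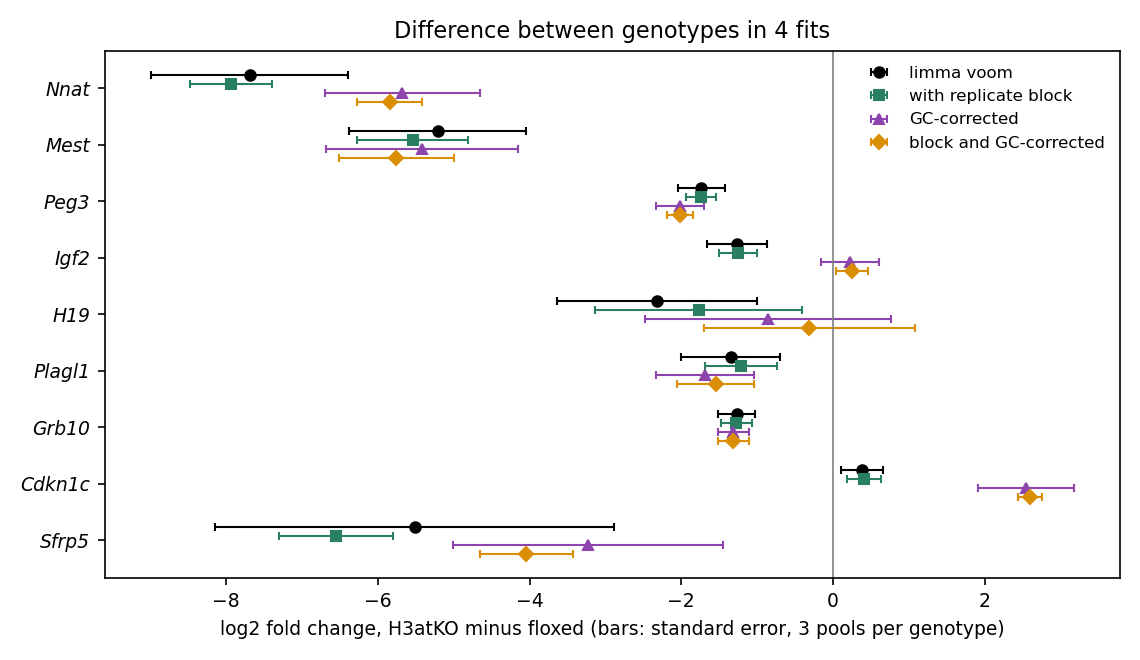
Log2 fold change of H3atKO minus floxed for the 9 genes in the fit, with bars for the standard error (3 pools per genotype), from limma voom, with the replicate block, after GC correction and with both. *Nnat*, *Mest*, *Peg3*, *H19*, *Plagl1*, *Grb10* and *Sfrp5* are below 0 in all 4 fits, although the bars of *H19* reach past 0 with the GC correction. *Igf2* crosses 0 with the GC correction, and *Cdkn1c* moves from 0.38 to 2.54.

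Some of the spread within a genotype was shared between genes. *Nnat*, *Mest* and *Sfrp5* were all lowest, among floxed samples, in replicate 3, where they were at 89.1, 46.2 and 3.09 cpm. That pool also had the floxed GC trend nearest to H3atKO, with a correlation of 0.0969 against 0.8 and 0.623 in floxed replicates 1 and 2. *Nnat* and *Sfrp5* had 58.6% and 60.3% GC, and *Mest* 47.4%. Floxed replicate 3 differed from floxed replicates 1 and 2 in several marker lists too. It had the lowest summed adipocyte markers of them, at 13500 against 29180 and 24810 cpm, and the highest macrophage markers, at 964 against 356 and 213 cpm. Stromal progenitor markers summed to 2631 against 1633 and 1521 cpm, but *Pdgfrb*, *Col15a1* and *Zfp423* of that list were lowest in replicate 3, at 47.6, 39.2 and 5.81 cpm. *Peg10*, a paternally expressed gene of another cluster chosen here after its values were seen, was also lowest in replicate 3 among floxed samples, with 152, 129 and 10.5 cpm in floxed and 4.28, 6.02 and 5.12 cpm in H3atKO replicates (limma adjusted p = 0.0871, 0.00594 with the block and 0.0168 with block plus GC correction). *H19* instead was highest in floxed replicate 3 and H3atKO replicate 2. Skeletal muscle markers, 8 genes summed, were highest in the same samples, at 1197, 735 and 3024 cpm in floxed and at 522, 4759 and 17.1 cpm in H3atKO replicates. All 8 were highest in replicate 2 among H3atKO samples. Among floxed samples the list was split, with *Myh4*, *Ttn*, *Tnnt3* and *Mylpf* highest in replicate 3. *Ckm*, *Acta1*, *Myh1* and *Mb* were highest in floxed replicate 1, with *Myh1* at 283, 182 and 51.8 cpm in floxed replicates. *H19* is known to remain expressed in adult muscle. The part of these markers and of the GC trend in the levels of the 10 genes was not tested.

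**Figure D3:**
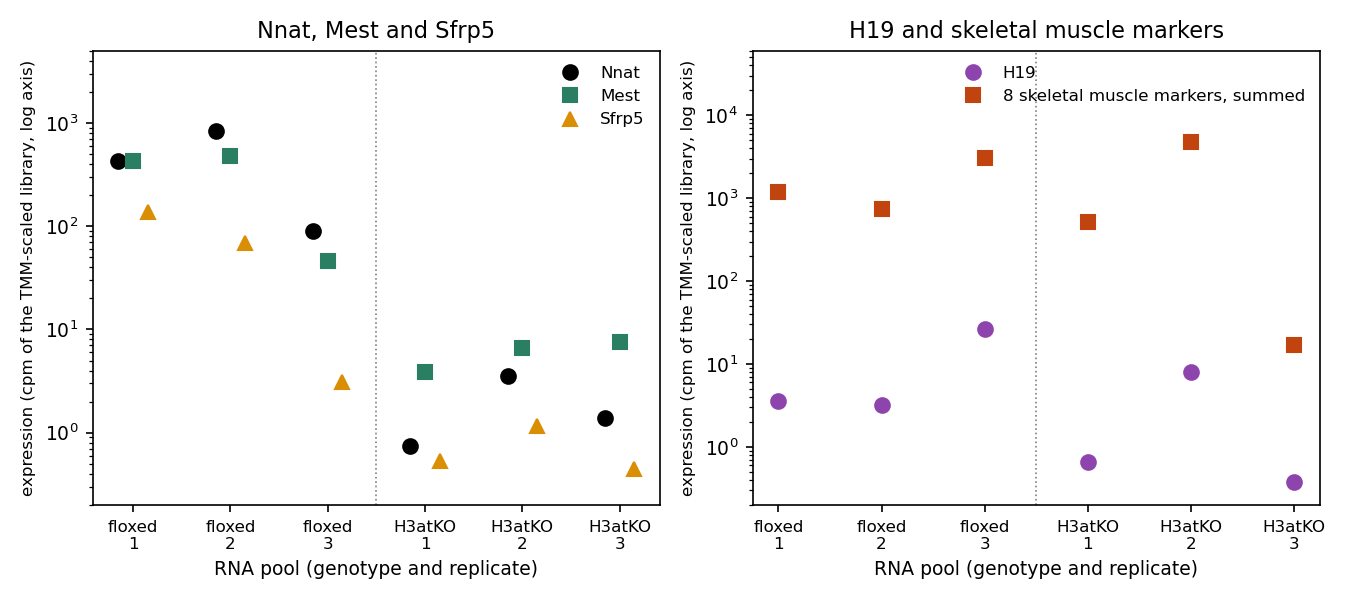
Expression in each of the 6 RNA pools in cpm of the TMM-scaled library on log axes, with a dotted line between floxed and H3atKO pools; left, *Nnat*, *Mest* and *Sfrp5*, right, *H19* and the sum of 8 skeletal muscle markers. Floxed replicate 3 is the lowest floxed pool for the left-hand genes. The pools with the highest muscle marker sum of their genotype, floxed replicate 3 and H3atKO replicate 2, have the most *H19*, although not every marker of the sum is highest in floxed replicate 3.

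The tissue holds many cell types, and in bulk RNA fewer cells of a type and less RNA per cell cannot be told apart. The marker calls below were made without the GC correction, so a trend with GC content cannot be told apart from them either. Of 12 stromal progenitor markers, 4 were lower in H3atKO at an adjusted p under 0.05 (limma) and none higher, where 7.07% of all genes were called lower. Their summed level was 1521 to 2631 cpm in floxed and 888 to 1171 cpm in H3atKO samples. *F3* of this list was higher in H3atKO without overlap, at means of 85.8 and 282 cpm, as were 23.1% of all genes. *Cd55*, and *Kdr* of the endothelial list, had higher means in H3atKO with overlap. Of 6 endothelial markers 3 were lower, with sums of 581 to 972 and 384 to 517 cpm, and of 6 nerve and Schwann cell markers 2 were lower, with sums of 202 to 319.6 and 110 to 152 cpm. Macrophage markers were lower for 3 of 6, with overlapping sums of 213 to 964 and 185 to 306 cpm, and smooth muscle and pericyte markers for 2 of 5, with overlapping sums of 331 to 1275 and 474 to 739.6 cpm. In H3atKO replicates that last sum was mostly *Rgs5*, at 442, 703 and 604 cpm. The mean of *Rgs5* was 305 cpm in floxed and 583 cpm in H3atKO samples, with overlap. *Acta2*, *Myh11*, *Cspg4* and *Cnn1* were each lower in H3atKO without overlap, as were 28.6% of all genes. None of the 7 adipocyte, 8 skeletal muscle, 8 B and T cell and 3 epithelial markers that could be fitted was called, and no marker was at 0 in every sample. With the replicate block, where 28.7% of all genes were called lower and 24.8% higher, the numbers were 3 lower for adipocytes, 6 lower and 1 higher for stromal progenitors, 4 higher for B and T cells, 5 lower for endothelium and for nerve, and 4 lower and 1 higher for smooth muscle. B and T cell markers summed to 119.5, 6.93 and 6.42 cpm in floxed and to 314, 10.4 and 394 cpm in H3atKO replicates. Genes of the mitochondrial genome took 6.92% to 12.9% of counts in floxed and 26.9% to 35.3% in H3atKO samples. Leaving them out changed none of the calls among the 10 genes.

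Per kilobase of exon, *Nnat* was the most abundant of the 10 genes in floxed fat at a mean of 245 cpm per kb, followed by *Peg3* at 92.7, *Mest* at 81.0, *Sfrp5* at 36.9 and *Grb10* at 15.8 cpm per kb. Below these were *Cdkn1c* at 10.7, *Plagl1* at 10, *H19* at 4.51, *Igf2* at 2.69 and *Dlk1* at 0.06 cpm per kb. Only *Grb10* and *Cdkn1c*, and *Igf2* and *Dlk1*, were neighbours in this order whose floxed samples did not overlap. In H3atKO fat the order was *Peg3* at 27.8, *Cdkn1c* at 14.5, *Grb10* at 6.55, *Plagl1* at 5.31, *Mest* at 1.53, *H19* at 1.23, *Igf2* at 1.15, *Nnat* at 1.03, *Sfrp5* at 0.377 and *Dlk1* at 0.0144 cpm per kb. *Peg3* stood above all other members in every H3atKO sample, *Cdkn1c* above those after it, and the neighbours from *Grb10* to *Sfrp5* overlapped. *Nnat* thus went from the first place to the eighth place among these levels.

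The genes most like *Nnat* over the 6 samples, by the Pearson correlation of log2 cpm among 11642 genes with a mean of at least 1 log2 cpm, were *2700081O15Rik* (0.9989), *Mmp28* (0.9971), *Prrg3* (0.9969), *Gjc1* (0.9957) and *Srpx2* (0.9956). Those most like *Mest* were *Zc3h7b* (0.9976), *Vamp2* (0.9974), *Hip1* (0.9965), *Cnnm3* (0.9955) and *Hoxc5* (0.9952). *Mest* itself came at rank 64 for *Nnat*, with 0.978. These are descriptions, since the 6 points share the genotype and the GC order of the libraries.

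A list of other imprinted genes of the mouse, chosen with earlier results of these data known, was set beside the 10. Of 49 listed genes 48 were matched and 36 could be fitted, and with limma 2 of these rose, *Mcts2* and *Ube3a*, and 4 fell, *Zim1*, *Osbpl5*, *H13* and *Peg13*, at an adjusted p under 0.05. This is set against 9.42% of all genes called higher and 7.07% called lower. The median log2 fold change was -0.61 over the list and -0.09 over all genes. Among 16 paternally expressed genes 1 rose and 1 fell with a median of -0.30, and among 20 maternally expressed genes 1 rose and 3 fell with a median of -1.15. After GC correction these medians were nearer each other, at -0.508 and -0.815. There 1 paternally expressed gene rose and 2 fell, and 1 maternally expressed gene rose and 1 fell, against 5.55% of all genes higher and 3.06% lower. The paternally expressed members *Nnat*, *Mest*, *Peg3*, *Igf2* and *Plagl1*, all below 0 with limma, are not in this list. The parental copy is as known for any mouse tissue and was not measured in this fat. Nothing is thus read from the difference between the medians. With the replicate block 4 of the 36 rose and 15 fell, against 24.8% and 28.7% of all genes, and with block and GC correction together 3 rose and 10 fell, against 13.1% and 9.71%. Without floxed replicate 3, 4 rose and 14 fell, where 44.4% of all genes were called in either direction. Without floxed replicate 2 none was called, where 0.00673% of all genes were. *Zim1* alone was called without floxed replicate 1 or any single one of the H3atKO replicates, where 0.718% to 3.57% of all genes were.

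*Zim1* (chromosome 7, 6671269 to 6696450), a zinc finger gene that lies 7.44 kb from *Peg3* and is expressed from the maternal copy, showed the lowest p of this list. It was at 198, 261 and 149 cpm in floxed and at 24.7, 37.3 and 16.9 cpm in H3atKO replicates, for which limma gave -2.96 on the log2 scale (SE 0.363, adjusted p = 0.00999, and 0.013 after GC correction). *Zim1* and *Peg3*, expressed from opposite parental copies, were thus both lower in every H3atKO sample than in any floxed sample. *Usp29*, which begins 0.146 kb from the start of *Peg3* on the other strand, was too low for the fit, at 16, 11 and 9 counts in floxed but 4, 2 and 0 counts in H3atKO replicates.

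Of the other called genes of this list, *Mcts2* alone passed the threshold again after GC correction. *Mcts2*, a retrogene in an intron of *H13* whose counts may be shared with its parent gene *Mcts1*, rose from 5.20, 4.93 and 6.49 to 19.03, 18.4 and 14.7 cpm, for which limma gave 1.66 on the log2 scale (SE 0.307, adjusted p = 0.0241) and 1.40 (adjusted p = 0.0252) after GC correction. *Ube3a*, which encodes a ubiquitin ligase and is biallelic in most tissues other than neurons, was at 62.7, 88.9 and 136 cpm in floxed and at 260.3, 331 and 455 cpm in H3atKO replicates, a difference of 1.90 on the log2 scale (SE 0.352, adjusted p = 0.0241, limma) and of 0.68 (adjusted p = 0.0517) after GC correction. *Ube3a* overlaps the antisense gene *Snhg14* over 8.7% of its exonic bases. The falls of *Peg13* (-1.27, adjusted p = 0.039), *H13* (-1.43, adjusted p = 0.0486) and *Osbpl5* (-2.41, adjusted p = 0.0468) from limma went to -0.72, 0.06 and -0.78 after GC correction, with adjusted p of 0.0682, 0.844 and 0.124. With block plus GC correction *Mcts2*, *Ube3a* and *Peg13* passed (adjusted p = 0.0175, 0.0392 and 0.038, limma). *H13* and *Osbpl5* did not pass there (0.775 and 0.0902).

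**Figure D4:**
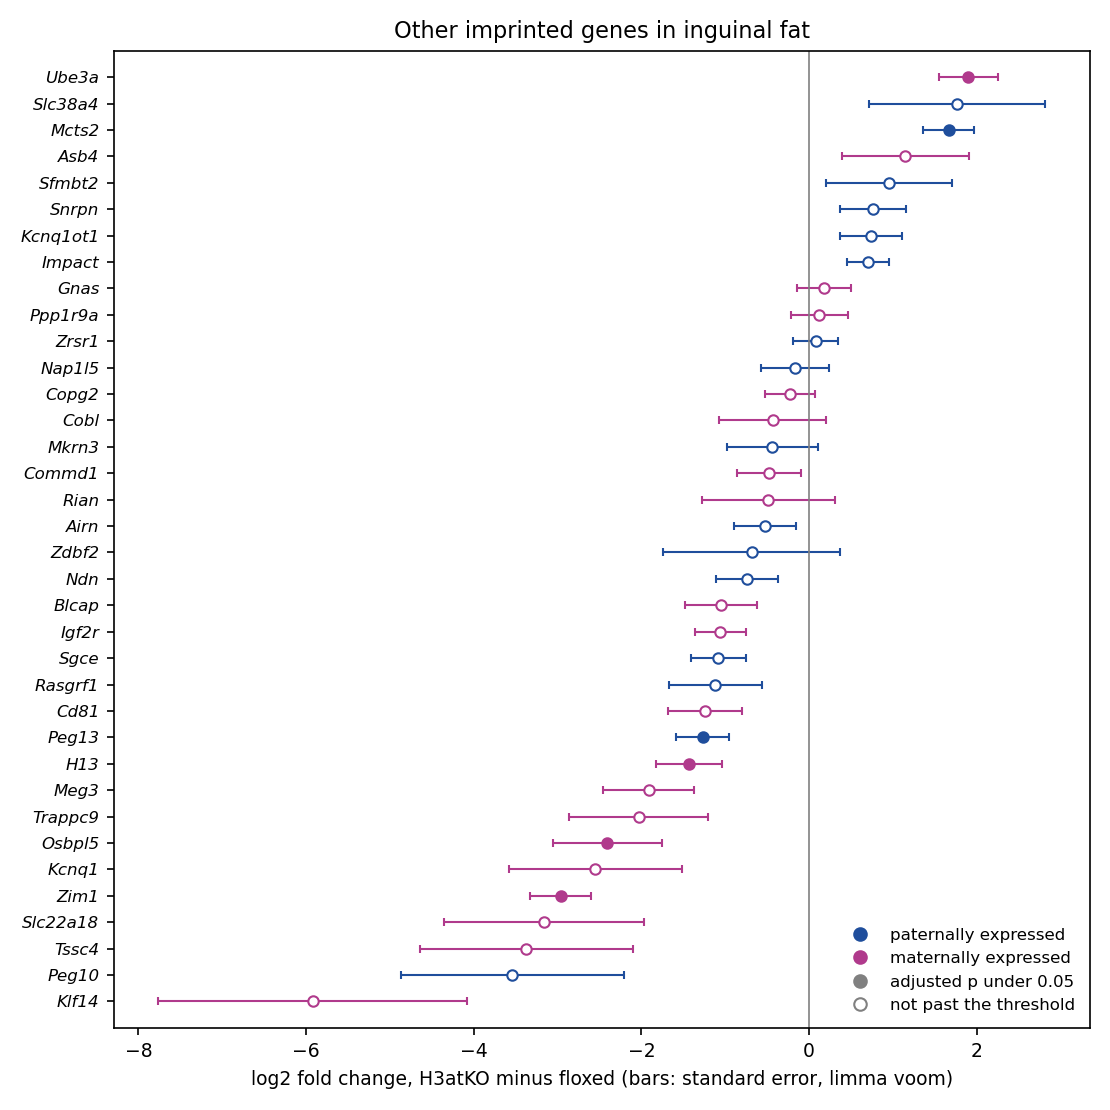
Log2 fold change of H3atKO minus floxed for the 36 other imprinted genes in the fit, with bars for the standard error (limma voom, 3 pools per genotype); blue is paternally and magenta maternally expressed, as known for any mouse tissue and not measured here, and filled points passed an adjusted p of 0.05. *Zim1* and the 5 other filled points passed, and *Klf14* and *Peg10* have the lowest values with wide bars.

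Neighbours of the members in their clusters were followed as well, and none of those below was called by limma without the block. *Blcap*, whose intron holds *Nnat* on the opposite strand without exonic overlap, was at 89.5, 130.4 and 46.8 cpm in floxed and at 39.2, 51.9 and 29.1 cpm in H3atKO replicates. Its log2 fold change was -1.05 (adjusted p = 0.101, 0.00744 with the block and 0.178 with block plus GC correction), beside -7.69 for *Nnat*. Next to *Mest*, *Copg2* was at -0.23 (adjusted p = 0.559, limma), and at -0.86 (adjusted p = 0.0236) with block plus GC correction. *Klf14*, a transcription factor gene 208 kb from *Mest*, had 493, 265 and 59 counts in floxed against 1, 0 and 5 counts in H3atKO replicates. The log2 fold change of *Klf14* was -5.92 (SE 1.84, adjusted p = 0.0596, 0.0129 with the block and 0.048 with both), and the lowest of its floxed samples was again replicate 3.

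Around *Dlk1*, the maternally expressed noncoding RNA *Meg3* was at 25.6, 14.6 and 46.0 cpm in floxed and at 5.81, 7.65 and 7.33 cpm in H3atKO replicates, or -1.91 on the log2 scale (adjusted p = 0.0507, 0.00768 with the block and 0.0229 with both). *Rian*, from the same cluster, was at -0.49 (adjusted p = 0.648), and at -1.93 (adjusted p = 0.0355) with both. *Rtl1*, *Mirg* and *Dio3* were too low for the fit, with at most 26 counts in any sample. Near *Cdkn1c*, *Slc22a18* was at -3.16 (adjusted p = 0.0872, and 0.00827 with the block) and *Kcnq1* at -2.55 (adjusted p = 0.101, and 0.0475 with the block). With the block and the GC correction they were at -1.58 (adjusted p = 0.0946) and -0.34 (adjusted p = 0.757). The long noncoding RNA of that cluster, *Kcnq1ot1*, was at 0.74 (adjusted p = 0.157), a sign that turned with library sizes alone and with the GC correction, and *Phlda2* had at most 1 count. Beside *Grb10*, *Cobl* was at -0.44 (adjusted p = 0.609), and *Ddc*, with at most 23 counts, was not fitted. These adjusted p-values are from limma.

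The IGF pathway, in which *Igf2* is a ligand and *Grb10* a brake on the receptors, was followed with 20 further genes, of which 16 could be fitted. With limma 1 rose, the insulin receptor *Insr*, and 3 fell, the binding proteins *Igfbp4*, *Igfbp6* and *Igfbp7*, against 9.42% of all genes called higher and 7.07% lower. The median was -1.36, and -0.74 after GC correction. *Insr* was at 188, 243 and 259.8 cpm in floxed and at 422, 562 and 545 cpm in H3atKO replicates, a difference of 1.15 on the log2 scale (SE 0.246, adjusted p = 0.0306, limma) that was 0.86 (adjusted p = 0.0357) after GC correction. *Igfbp6*, which binds IGF2 with preference over IGF1, went from 34.4, 14.4 and 15.3 cpm to 1.56, 0.663 and 0.948 cpm, for which limma gave -4.24 on the log2 scale (SE 0.689, adjusted p = 0.0192). *Igfbp4* was at -1.55 (adjusted p = 0.0267) and *Igfbp7* at -1.17 (adjusted p = 0.0241), and none of the binding proteins was called after GC correction, where *Igfbp6* was at -1.89, *Igfbp4* at -0.23 and *Igfbp7* at 0.92. *Igf2r*, the maternally expressed receptor that clears IGF2, was at -1.06 (adjusted p = 0.0519, 0.00916 with the block and 0.0913 with block plus GC correction), and is named here after its values were seen. With the block 3 genes of the pathway rose and 9 fell, against 24.8% and 28.7% of all genes. Under both adjustments 4 rose, *Igfbp7* among them, and 3 fell, *Igfbp6* among them at -1.74 (adjusted p = 0.0251, limma), against 13.1% and 9.71%. Without floxed replicate 2, H3atKO replicate 1 or H3atKO replicate 3 none was called, where 0.00673% to 1.66% of all genes were. Without floxed replicate 1 *Igfbp6* alone was called, where 1.62% of all genes were, and without H3atKO replicate 2 *Igfbp4* and *Igfbp6*, where 3.57% were. Without floxed replicate 3, 2 rose and 8 fell, where 44.4% of all genes were called.

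Of 22 Wnt ligands and secreted Wnt antagonists listed beside *Sfrp5*, 14 could be fitted. Only *Wnt11* was called, as lower, where 7.07% of all genes were called lower and 9.42% higher. It was at 3.80, 2.55 and 2.62 cpm in floxed and at 0.700, 0.561 and 1.26 cpm in H3atKO replicates. The difference was -1.89 on the log2 scale (SE 0.526, adjusted p = 0.0492, limma) and -0.27 (adjusted p = 0.770) after GC correction. The median of the list was -1.74, and -0.40 after GC correction. With the block 7 were called, all lower, against 28.7% of all genes, and under both adjustments 2 were lower, against 9.71%. Without floxed replicate 3 there were 4, where 44.4% of all genes were called. Without any single one of the other samples there were 0, where 0.00673% to 3.57% of all genes were called.

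Genes that keep imprints or act on DNA methylation, listed here as imprint maintenance genes, were 16, of which 15 could be fitted. They were such genes as DNA methyltransferases, the *Tet* genes, ZFP57 and its cofactor TRIM28, and the insulator factor CTCF. With limma none was called in either direction, where 9.42% of all genes were called higher and 7.07% lower. At an unadjusted p under 0.05, 3 were higher and 2 lower, against 3056 higher and 3506 lower of all 14967 genes. The median was 0.13. edgeR called 1 higher and 2 lower, where it called 31.2% of all genes, 12.8% higher and 18.4% lower. DESeq2 called 3 higher and 2 lower, where it called 42.8% of all genes, 19.6% higher and 23.2% lower. With the block limma called 4 higher, *Ctcf* among them (adjusted p = 0.0898 without and 0.0152 with it), and 2 lower, *Trim28* among them (0.0618 and 0.00288), and neither passed once the GC correction was added (0.122 and 0.971). Under both adjustments limma called *Uhrf1*, *Mbd2* and *Tet3* higher (adjusted p = 0.0121, 0.0136 and 0.0156) and *Mbd3* lower (0.0492), against 13.1% and 9.71% of all genes. Without floxed replicate 3 it called 3 higher and 2 lower, where it called 44.4% of all genes in either direction.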

How the data were processed

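RNA-seq of IngWAT from 3 floxed and 3 H3atKO pools was used. The authors prepared poly(A)-selected stranded libraries, trimmed reads with cutadapt 1.3, aligned them to GRCm38 with STAR 2.4.2a and assigned them to Ensembl genes by HTSeq 0.6.1; they deposited raw read counts per gene for each sample. Rows that tally reads given to no gene were left out. Counts on genes were 23865507 to 35200685 per sample. Floors of 3 counts cover counting error only, since PCR copies were not marked.

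Symbols and positions came from GENCODE M21 on GRCm38 (46005 of 46517 identifiers matched), and promoter windows from RefSeq. The 14967 genes that reached 1 cpm in any sample were kept, libraries were scaled with TMM and expression was fitted on genotype with limma 3.58.1 (voom) in R 4.3.3, after the methods of the study, with a call at an adjusted p (Benjamini-Hochberg, over all genes) under 0.05. TMM factors were 1.29 to 1.38 in floxed and 0.663 to 0.921 in H3atKO. The GC trend of a sample, a loess curve (span 0.3) of its departures from the gene means on GC content, was subtracted in the GC correction. Alternatives were edgeR 4.0.16 (quasi-likelihood), DESeq2 1.42.0, other scalings and filters, quality weights, the replicate block, and each sample left out. The fits were tested on simulated data.

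The deviations of same-numbered samples had correlations of 0.51, 0.389 and 0.264 for replicates 1 to 3. After GC correction these were 0.395, 0.38 and 0.00354, so that replicate 3 showed almost none. The label's number was taken to pair the samples in the block, an assumption drawn from these same data. Correlations between differently numbered samples are not given here. The labels do not say what the number marks.

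The 10 genes and all lists were chosen with earlier results of these data known. Named genes were the 10 members, up to 8 called genes of each list with the largest change, cluster neighbours, and the 5 genes most correlated with *Nnat* and with *Mest*.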

Additional observations from a re-analysis of the deposited data

How the results depend on the processing

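With edgeR 2749 genes were lower, and 13 other imprinted, 6 IGF, 6 Wnt and 2 imprint maintenance genes were lower and 1 maintenance gene higher. With DESeq2 2935 genes were higher and 3465 lower, with 14 imprinted genes lower, 2 IGF genes higher and 8 lower, 6 Wnt genes lower, and 3 maintenance genes higher and 2 lower. With library sizes alone 306 were higher and 5667 lower, with 1 imprinted gene higher and 20 lower, 0 IGF genes higher and 10 lower, 9 Wnt and 6 maintenance genes lower, while the median of all genes moved to -0.95. Without a filter 3 Wnt genes were lower. With at least 10 counts in every sample 1864 genes were lower, and 7 imprinted, 6 IGF, 2 Wnt and 1 maintenance genes were lower. With sample quality weights 4003 were higher and 4440 lower, with 5 imprinted genes higher and 15 lower, 3 IGF genes higher and 9 lower, 6 Wnt genes lower, and 5 maintenance genes higher and 2 lower.

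With the replicate block 3717 genes were higher and 4290 lower, with 4 imprinted genes higher and 15 lower, 3 IGF genes higher and 9 lower, 7 Wnt genes lower, and 4 maintenance genes higher and 2 lower; among the cluster neighbours and the listed genes that were called without it, it changed no other call than those given in the report. With the GC correction 830 were higher and 458 lower, and 0 IGF genes were lower. With both, 10 imprinted genes were lower, 4 IGF genes higher, 2 Wnt genes lower, and 3 maintenance genes higher and 1 lower.

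Leaving out each sample in turn gave 1 to 2729 genes higher and 0 to 3828 lower, 0 to 4 imprinted genes higher and 0 to 14 lower, 0 to 2 IGF genes higher and 0 to 8 lower, 0 Wnt genes higher and 0 to 4 lower, and 0 to 3 maintenance genes higher and 0 to 2 lower. Without floxed replicate 2, 1 gene was higher and 0 lower over all genes. Signs turned for *H13* (0.0619 after GC correction and 0.0793 with the block added), *Igfbp7* (0.92 and 0.93), *Kcnq1ot1* (-0.0935 on library sizes alone, -0.26 after GC correction and -0.23 with the block added) and, with quality weights, *Rian* (0.16) and *Cobl* (0.26). Leaving out single samples gave -0.94 to 0.36 for *Rian* and -0.88 to 0.0112 for *Cobl*, above 0 without floxed replicate 3. The cause was not tested. *Nnat* stayed between -8.86 and -5.68 and *Mest* between -6.35 and -4.62 over all settings. *H19* and *Sfrp5* had no value at 10 counts in every sample.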
